A study of Mus musculus with 6 samples.

Results

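Tenascins, lecticans and the proteins that anchor them make up much of the matrix around neurons. The 10 genes described here were chosen by name as members of this matrix: the tenascins *Tnr* and *Tnc*, the lecticans *Acan*, *Bcan*, *Ncan* and *Vcan*, the link proteins *Hapln1* and *Hapln4*, and the membrane proteoglycans *Cspg4* and *Ptprz1*. Each of the 10 matched 1 row of a table of 55573 genes. They were compared in adult C57BL/6J mice that had received adeno-associated virus 2 (AAV2) carrying *Ezh2* or, as the control, *GFP* in the vitreous. Both groups had an optic nerve crush (ONC) 2 weeks after the virus, and 3 days after the ONC retinal cells were sorted for surface CD90.2, the product of *Thy1*, to enrich retinal ganglion cells (RGCs). AAV2 in the vitreous is used to reach RGCs, and the share of sorted cells that carried the vector was not measured in these libraries. There were 3 GFP and 3 Ezh2 libraries of total RNA, and the labels do not say whether replicates came from separate animals, so p-values measure only the spread between these libraries.

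In neural tissue the lecticans bind the sugar chain hyaluronan, link proteins hold that bond, and tenascins crosslink the far ends of the lecticans into a mesh. When this mesh is dense around a neuron it is called a perineuronal net. Chondroitin sulfate chains on lecticans, and tenascin-R itself, are known to hold back growing axons, and glia add to them at sites of injury. Ezh2 is the enzyme of the Polycomb complex PRC2 that methylates histone H3 at lysine 27, a mark of silenced genes.

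Library totals ranged from 30569933 to 35971192 counts. *Ezh2* itself was at 28.8, 34.6 and 33 counts per 1000000 counts of the library (CPM) in the GFP libraries and at 78, 65.3 and 105 in the Ezh2 libraries, with no overlap (log2 fold change 1.17 ± 0.09, edgeR adjusted p = 1.56e-07). The Ezh2 replicate 3 library stood apart from its group: count differences per gene, as chi-square over sampling noise, were 62.9 and 71.6 between it and the other Ezh2 libraries, against 5.59 to 8.92 between the other pairs of a group. The study left out 1 Ezh2 library, taken here to be this one, so tests used 5 libraries and are given again with all 6. A gene was called when its adjusted p was under 0.05 and its fold change above 1.5. The 12 RGC genes of the marker list summed to 135 to 140 CPM in the GFP and 162 to 178 in the Ezh2 libraries, most of it *Thy1* at 87.2 to 114. Of the others, *Rbpms* was at 16.4 to 20.8 CPM, *Nefl* at 9.42 to 15.4 and *Slc17a6* at 4.09 to 8.17, while the RGC transcription factor genes *Pou4f2*, *Pou4f3* and *Pou4f1* were at most at 0.0932, 0.404 and 0.6. The Muller glia gene *Glul* was at 5446 to 9900 CPM, so the libraries hold RNA of RGCs and of other retinal cells and are described below as sorted retinal cells.

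*Tnr* and *Vcan* carry the calls made below, and *Ptprz1* had the highest level of the 10 genes, so the 250 bases before their RefSeq start (GRCm38.p6) are shown with each CG dinucleotide in capitals, since PRC2 is known mostly from CG-rich promoters. No binding or histone mark was measured here. The *Tnr* window is at chr1:159523519-159523768 on the plus strand, the *Vcan* window at chr13:89742513-89742762 on the minus strand, and the *Ptprz1* window at chr6:22875252-22875501 on the plus strand.
Tnr: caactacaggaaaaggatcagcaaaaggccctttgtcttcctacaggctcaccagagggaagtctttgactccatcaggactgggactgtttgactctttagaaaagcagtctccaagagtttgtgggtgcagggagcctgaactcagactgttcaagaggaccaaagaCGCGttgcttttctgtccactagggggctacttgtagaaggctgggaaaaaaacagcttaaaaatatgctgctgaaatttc
Vcan: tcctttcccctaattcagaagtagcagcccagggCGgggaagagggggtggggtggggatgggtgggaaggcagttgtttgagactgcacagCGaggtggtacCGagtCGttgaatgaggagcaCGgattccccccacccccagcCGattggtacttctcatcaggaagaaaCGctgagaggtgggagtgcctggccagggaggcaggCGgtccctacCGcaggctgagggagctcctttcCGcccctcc
Ptprz1: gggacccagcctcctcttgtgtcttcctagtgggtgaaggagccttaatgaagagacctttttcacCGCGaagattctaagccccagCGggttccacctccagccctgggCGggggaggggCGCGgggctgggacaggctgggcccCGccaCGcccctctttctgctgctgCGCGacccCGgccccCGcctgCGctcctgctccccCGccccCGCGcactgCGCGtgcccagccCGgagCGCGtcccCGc

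*Tnr* had 2 CG in this window, *Vcan* 10 and *Ptprz1* 22, against a median of 6 over 32851 RefSeq windows of the same length. A window with at least as many CG was found at 81.2% of starts for *Tnr*, 37.8% for *Vcan* and 14.8% for *Ptprz1*. The strand of a gene sets where its window lies, but CG reads the same on both strands, so the count within a window does not depend on the strand read. Of the 10 genes, 9 had a window, and the number of CG ran from 2 (*Tnr* and *Hapln1*) to 26 (*Acan*). As a check, the sequence just after each start was looked for in annotated transcripts of the gene. It was not found for *Acan* or *Bcan*, so the starts behind their windows are less certain. The letters TATAAA, searched on both strands, were found for *Tnc* and *Ncan* and for no other member with a window, and 12.4% of all windows held them.

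Among the sorted cells, 8 of the 10 genes had enough counts to be tested, and 2 of them were called lower after *Ezh2* overexpression and none higher. Across all 20241 tested genes, 1.27% were called lower and 2.45% higher. The 2 were *Tnr*, at 0.424 times its GFP level, and *Vcan*, at 0.605 times. *Tnc* and *Ptprz1* were also lower at adjusted p under 0.05 but by less than 1.5-fold, which makes 4 of 8 by adjusted p alone, a rule met by 7.07% of all tested genes in this direction and 9.38% in the other. The log2 fold change was below 0 for 7 of the 8, with a median of -0.53, against -0.01 over all tested genes. With all 6 libraries the same 2 genes were called lower, where 0.811% of 19732 tested genes were called lower and 1.6% higher, and the median was -0.45. Every Ezh2 library was below every GFP library for 5 of the 8 genes, namely *Tnr*, *Ncan*, *Vcan*, *Hapln4* and *Ptprz1*, a pattern shown by 19.3% of all tested genes. In sorted bulk cells, fewer cells of a type and less RNA per cell cannot be told apart.

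**Figure D1:**
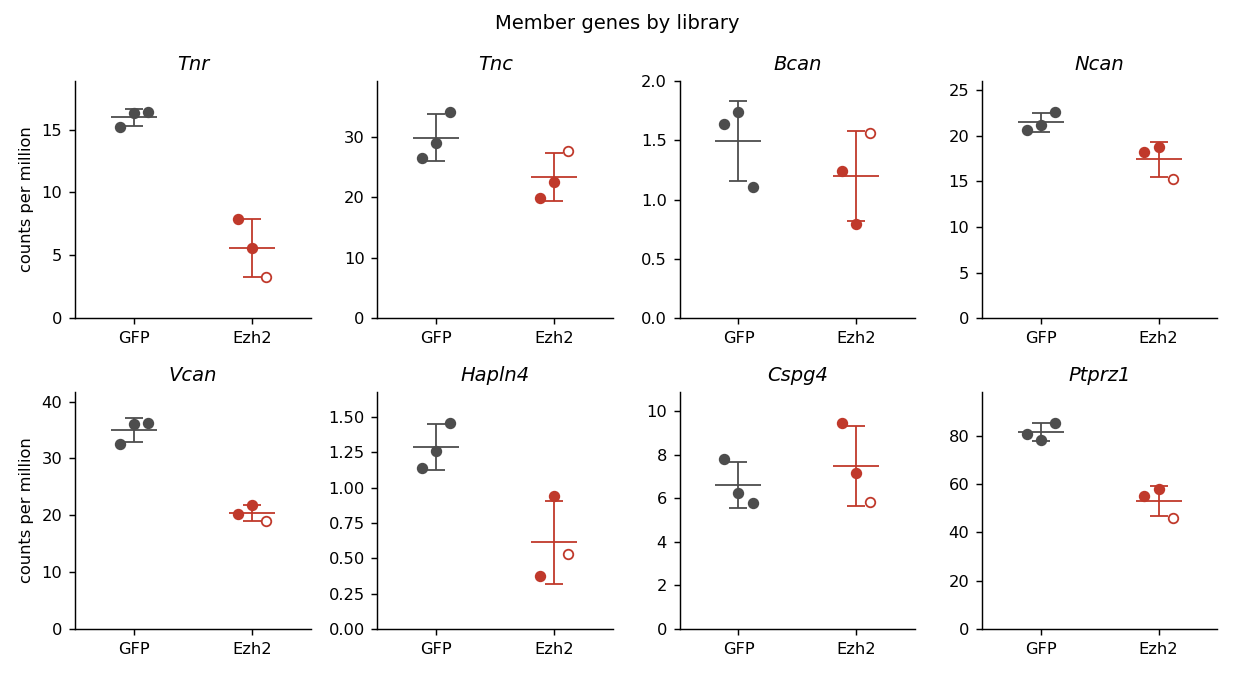
CPM in each library for the 8 tested genes, with GFP libraries in grey and Ezh2 libraries in red, Ezh2 replicate 3 as an open circle, and horizontal lines at the mean of 3 libraries ± SD. *Tnr*, *Ncan*, *Vcan*, *Hapln4* and *Ptprz1* show no overlap between the groups, while *Tnc*, *Bcan* and *Cspg4* overlap.

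*Tnr* encodes tenascin-R, a crosslinker of lecticans that in the retina is known from horizontal cells and in the optic nerve from oligodendrocytes. The gene (ENSMUSG00000015829) lies at 159523769 to 159931729 on the plus strand of chromosome 1. Its level was 15.2, 16.3 and 16.4 CPM in the GFP libraries and 7.92, 5.57 and 3.31 in Ezh2 replicates 1 to 3. The highest Ezh2 library was well below the lowest GFP library, and replicate 3 was the lowest of all. The log2 fold change was -1.24 ± 0.14 (SE; edgeR quasi-likelihood test, Benjamini-Hochberg adjusted p = 1.43e-05) over 5 libraries and -1.48 ± 0.26 (edgeR adjusted p = 0.0213) over 6. The call held when any of the 5 libraries was left out. Starting from all 6, it was lost without GFP replicate 1, 2 or 3 or Ezh2 replicate 2 (edgeR adjusted p = 0.107, 0.102, 0.124 and 0.0529), with log2 fold changes from -1.80 to -1.47 in the 5 such fits that kept Ezh2 replicate 3. *Tnr* was among the genes the study singled out on these libraries, so its direction is not independent evidence. The antisense gene *Gm38039* covers 443 of the 12867 exon bases of *Tnr* (3.44%), and as the strand setting of the counting is not given, its reads cannot be told apart from those of *Tnr* there.

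Markers of the cell types in which *Tnr* is known were examined beside it. Of the 4 horizontal cell genes, *Lhx1* was at 0 in all GFP libraries and at most at 0.0621 CPM in the Ezh2 libraries, *Onecut1* was at most at 0.196, and *Onecut2* was at 0.294 to 1.46 and did not pass the test (log2 fold change -0.20 ± 0.54, edgeR adjusted p = 0.853). *Calb1*, a calcium-binding protein gene shared by horizontal and amacrine cells, was at 3.17, 2.5 and 3.09 CPM in the GFP libraries and 0.559, 0.314 and 0.0834 in the Ezh2 libraries, and was called lower (log2 fold change -2.73 ± 0.35, edgeR adjusted p = 6.36e-05). Summed over the 4 genes, horizontal cell markers were at 3.57 to 4.65 CPM in the GFP libraries and 0.917 to 1.37 in the Ezh2 libraries, but without *Calb1* the sums overlapped, at 0.491 to 1.56 and 0.652 to 1.06. The 10 amacrine markers summed to 68 to 79.8 CPM in the GFP and 47.3 to 53.2 in the Ezh2 libraries (18.2 to 20.5 and 11.8 to 18.3 without *Slc6a9*). Of 7 tested, 1 was called lower (*Tfap2b*, log2 fold change -2.72 ± 0.24) and 1 higher (*Tfap2c*, 2.93 ± 0.39). The shares of all tested genes were 1.27% lower and 2.45% higher. The part of these cell types in the *Tnr* result was not tested. The oligodendrocyte genes *Olig1*, *Olig2* and *Mog* had no count in any library, which allows at most 0.0981 CPM in a library by counting error alone.

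Over the 6 libraries the profiles of *Map3k13*, a stress kinase of the same family as the axon injury kinase DLK, and *Plxnc1*, a semaphorin receptor, were among the most like that of *Tnr*, with a Pearson r of log2 CPM of 0.999 each. *Map3k13* was at 21.6 to 22.5 CPM in the GFP libraries and at 17.9, 16.1 and 13.9 in the Ezh2 libraries, a smaller change in the same order of Ezh2 libraries. *Plxnc1* was at 175 to 179 CPM and then at 157, 147 and 133. Of 13767 genes compared, 852 had an r of at least 0.95 with *Tnr*, and all of them share the same 6 libraries.

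*Tnc* encodes tenascin-C, which glia produce in development and at injuries. The gene (ENSMUSG00000028364) lies at 63959785 to 64047015 on the minus strand of chromosome 4. Its level was 26.5, 28.9 and 34.1 CPM in the GFP libraries and 19.8, 22.5 and 27.7 in the Ezh2 libraries. Ezh2 replicates 1 and 2 were below every GFP library, but replicate 3 was above GFP replicate 1. The log2 fold change was -0.48 ± 0.11 (edgeR adjusted p = 0.00446) over 5 libraries and -0.31 ± 0.16 (edgeR adjusted p = 0.266) over 6, so *Tnc* was not called in either. The antisense gene *8030451A03Rik* covers 2.26% of its exon bases. The ratio of *Tnr* to *Tnc* per length was 0.347, 0.342 and 0.29 in the GFP libraries and 0.242, 0.15 and 0.072 in the Ezh2 libraries.

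*Vcan* encodes versican, the largest lectican, which many glial, stromal and myeloid cells make. The gene (ENSMUSG00000021614) lies at 89655312 to 89742509 on the minus strand of chromosome 13. Its level was 32.5, 36 and 36.3 CPM in the GFP libraries and 20.2, 21.8 and 19 in the Ezh2 libraries. The groups did not overlap, and Ezh2 replicate 3 lay close to the others. The log2 fold change was -0.72 ± 0.09 (edgeR adjusted p = 2.61e-05) over 5 libraries and -0.74 ± 0.09 (edgeR adjusted p = 0.00671) over 6. The call held without any of the 5 libraries, and starting from 6 it was lost without GFP replicate 2 or 3 (edgeR adjusted p = 0.0566 and 0.0651).

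Fibroblast and myeloid markers were set beside *Vcan*. The 5 fibroblast genes summed to 712 to 743 CPM in the GFP and 500 to 643 in the Ezh2 libraries (210 to 232 and 157 to 162 without *Pdpn*). Over 5 libraries 3 of the 5 passed adjusted p under 0.05 in the lower direction, as did 7.07% of all tested genes. *Col1a1* was called (log2 fold change -0.69 ± 0.11, edgeR adjusted p = 0.000308). With all 6 libraries 2 of the 5 passed and *Col1a1* was not called (-0.56 ± 0.14, edgeR adjusted p = 0.0623). The 12 microglia, macrophage and monocyte genes summed to 1308 to 1489 CPM in the GFP and 2162 to 3207 in the Ezh2 libraries. Over 5 libraries 4 of the 12 were called higher and none lower, against 2.45% and 1.27% of all tested genes. Without *Lyz2* the sums overlapped, at 979 to 1109 and 939 to 1339 CPM. Among the 12, *Lyz2* (log2 fold change 2.19 ± 0.09) and *Cd68* (1.35 ± 0.09) were called higher. The microglia genes *P2ry12* (-0.07 ± 0.10), *Tmem119* (0.04 ± 0.06) and *Cx3cr1* (0.28 ± 0.06) were not called. *Cx3cr1* passed adjusted p alone over 5 libraries (edgeR adjusted p = 0.00679) but not with all 6 (edgeR adjusted p = 0.576). By adjusted p alone 8 of the 12 were higher over 5 libraries, as were 9.38% of all tested genes. With all 6 libraries 4 of the 12 were. The part of fibroblasts and of myeloid cells in the *Vcan* result was not tested.

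*Ncan* encodes neurocan, a lectican of neurons and reactive glia. It was at 20.6, 21.2 and 22.6 CPM in the GFP libraries and at 18.2, 18.8 and 15.2 in the Ezh2 libraries. The groups did not overlap but the difference was small, with a log2 fold change of -0.21 ± 0.09 (edgeR adjusted p = 0.139) over 5 libraries and -0.27 ± 0.10 (edgeR adjusted p = 0.157) over 6. *Bcan*, which encodes brevican, an adult brain lectican, was at 1.64, 1.74 and 1.11 CPM in the GFP libraries and 1.24, 0.799 and 1.56 in the Ezh2 libraries. These overlapped, from 28 to 56 counts a library, and a log2 fold change of -0.54 ± 0.36 (edgeR adjusted p = 0.357) left a wide interval. *Acan*, which encodes aggrecan, the lectican that defines perineuronal nets in cortex, had 5 counts in GFP replicate 1 and none in the other libraries and was not tested. *Vcan* made up 40.6% to 42.5% of the summed lectican level per length in the GFP libraries and 33% to 35% in the Ezh2 libraries.

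Link protein genes were low. *Hapln1*, which encodes the link protein of cartilage and of most perineuronal nets, had 2 counts in GFP replicate 2, 2 in Ezh2 replicate 1 and none elsewhere, and was not tested. *Hapln4*, which encodes a brain link protein of nets in brainstem and cerebellum, had 35, 40 and 45 counts in the GFP libraries and 12, 33 and 19 in the Ezh2 libraries. On the CPM scale these were 1.14, 1.26 and 1.46 against 0.373, 0.942 and 0.528. The groups did not overlap, but the log2 fold change of -0.94 ± 0.44 (edgeR adjusted p = 0.163), or -1.02 ± 0.39 (edgeR adjusted p = 0.152) with 6 libraries, did not pass the test.

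On GRCm38, *Ncan* lies at 70093085 to 70120873 on the minus strand of chromosome 8 and *Hapln4* at 70083457 to 70090862 on the plus strand of chromosome 8. *Acan* lies at 79053483 to 79115099 on the plus strand of chromosome 7, *Bcan* at 87987531 to 88000230 on the minus strand of chromosome 3, and *Hapln1* at 89539796 to 89611652 on the plus strand of chromosome 13. In the GENCODE M21 annotation each lectican gene is the neighbour of a link protein gene, with no protein-coding gene lying wholly between them. The gap was 2222 bases between *Ncan* and *Hapln4* on chromosome 8, 43659 bases between *Vcan* and *Hapln1* on chromosome 13, 21519 bases between *Bcan* and *Hapln2* on chromosome 3, and 2 bases between *Acan* and *Hapln3* on chromosome 7. The neighbours differed widely in level: *Vcan* was called lower beside a *Hapln1* at or near 0, and *Hapln3*, at 4.58 to 5.99 CPM in the GFP libraries, was read beside an *Acan* with almost no count. *Hapln3* was at 3.71 to 5.12 CPM in the Ezh2 libraries, with a log2 fold change of -0.27 ± 0.20 (edgeR adjusted p = 0.406).

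*Ptprz1* encodes a receptor phosphatase with chondroitin sulfate chains, made by glia, whose shed outer part is the proteoglycan phosphacan, a ligand of tenascins. The gene (ENSMUSG00000068748) lies at 22875502 to 23052916 on the plus strand of chromosome 6. Its level was 80.9, 78.3 and 85.4 CPM in the GFP libraries and 55.1, 57.9 and 46.1 in the Ezh2 libraries. The lowest GFP library was above the highest Ezh2 library by more than the spread within either group. The log2 fold change was -0.52 ± 0.06 (edgeR adjusted p = 4.16e-05) over 5 libraries and -0.58 ± 0.09 (edgeR adjusted p = 0.0129) over 6, both under the fold threshold.

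Muller glia genes were set beside *Ptprz1*. Of 11, 7 were lower by adjusted p alone, by less than 1.5-fold, among them *Glul* (log2 fold change -0.49 ± 0.04, edgeR adjusted p = 2.81e-07), *Car14* (-0.38 ± 0.05) and *Rlbp1* (-0.31 ± 0.05). Over the same 5 libraries 7.07% of all tested genes met this rule in this direction. With all 6 libraries 4 of the 11 met it. *Apoe* was called higher (0.72 ± 0.05), and *Vim*, *Sox9* and *Hes1* did not pass. The list summed to 25941 to 26511 CPM in the GFP libraries, 24722 and 26355 in Ezh2 replicates 1 and 2, and 20487 in replicate 3. *Gfap*, the intermediate filament gene of astrocytes and reactive Muller glia, was called higher (1.01 ± 0.07). The part of glia in the *Ptprz1*, *Tnc* and *Ncan* values was not tested.

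*Cspg4*, at 56865033 to 56899870 on the plus strand of chromosome 9, encodes NG2, the membrane proteoglycan of pericytes and oligodendrocyte precursors. It was at 7.82, 6.22 and 5.79 CPM in the GFP libraries and 9.47, 7.16 and 5.81 in the Ezh2 libraries, which overlapped. It was the only tested member with a log2 fold change above 0, at 0.34 ± 0.17 (edgeR adjusted p = 0.202) over 5 libraries and 0.21 ± 0.20 (edgeR adjusted p = 0.54) over 6. The pericyte genes *Abcc9* (0.69 ± 0.08, edgeR adjusted p = 3.23e-05) and *Kcnj8* (0.68 ± 0.13) were called higher over 5 libraries, whereas *Pdgfrb* had a log2 fold change of -0.05 ± 0.06. *Pdgfra*, a gene of oligodendrocyte precursors and also of stromal cells, was at 42.7 to 53.8 CPM in all libraries.

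**Figure D2:**
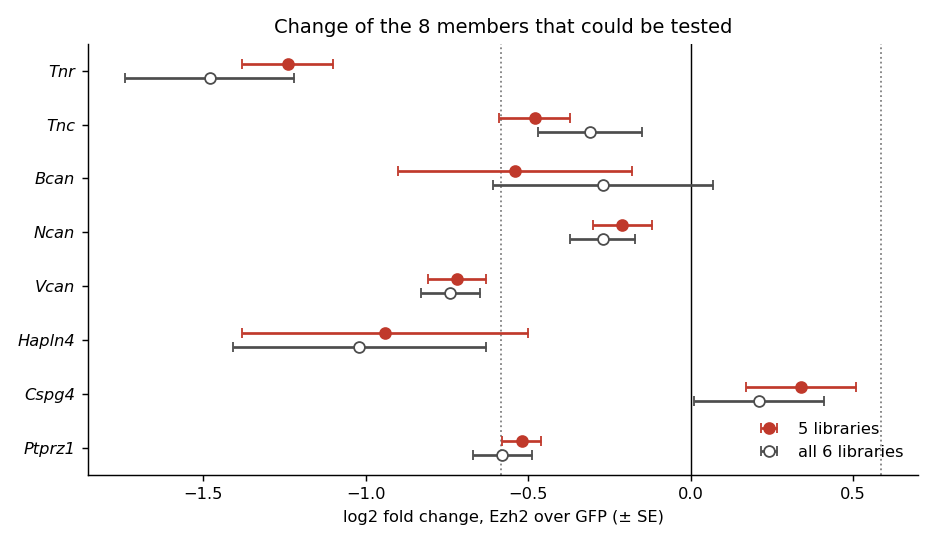
Log2 fold change of Ezh2 over GFP ± SE for the 8 tested genes over 5 libraries (filled) and all 6 (open), with dotted lines at a 1.5-fold change in each direction. *Tnr*, *Vcan* and *Hapln4* lie beyond the line in both fits, *Hapln4* with wide errors, *Ptprz1* and *Tnc* lie short of it, and *Cspg4* lies to the right of 0.

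Levels were compared between genes as CPM per kilobase of exon (RPKM). In the GFP libraries *Ptprz1* was the highest at 5.72 ± 0.253 (SD, n = 3), followed by *Tnc* at 3.83 ± 0.5, *Ncan* at 2.98 ± 0.142, *Vcan* at 2.42 ± 0.146, *Tnr* at 1.24 ± 0.0511, *Cspg4* at 0.554 ± 0.0895, *Bcan* at 0.367 ± 0.0834 and *Hapln4* at 0.329 ± 0.0411. Neighbours in this order did not overlap between libraries, except *Bcan* and *Hapln4*. The median over all tested genes was 3.83 RPKM, so that *Ptprz1* stood above it, *Tnc* at it and the other 6 below it. In the Ezh2 libraries *Tnr*, at 0.615, 0.433 and 0.257 RPKM, overlapped *Cspg4*, at 0.794, 0.601 and 0.487, and *Tnc* (2.54 to 3.57) overlapped *Ptprz1* (3.24 to 4.06). Summed over the 10 genes, the level was 16.8, 17.2 and 18.4 RPKM in the GFP libraries and 12.1, 12.5 and 11.5 in the Ezh2 libraries. *Tnr* made up 6.9% to 7.38% of this sum in the GFP libraries and 2.24% to 5.07% in the Ezh2 libraries.

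**Figure D3:**
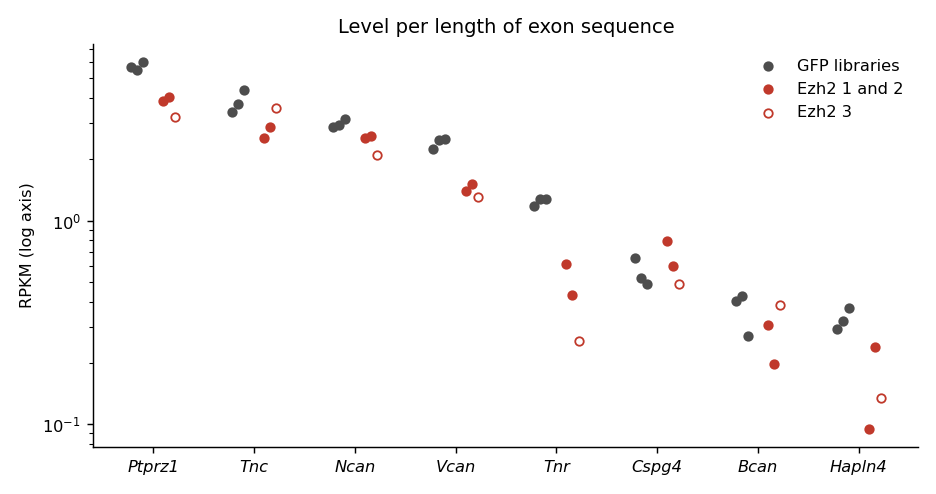
RPKM on a log axis for the 8 tested genes in each GFP (grey) and Ezh2 (red; replicate 3 open) library, ordered by the GFP mean. *Ptprz1* is highest in every library but Ezh2 replicate 3, where *Tnc* is, and *Tnr*, at 1.18 to 1.27 RPKM in the GFP libraries, is within or below the range of *Cspg4* in the Ezh2 libraries.

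Of 81 other genes of the same matrix, 76 were tested over 5 libraries, and 6 were called lower and 3 higher, to be read against the 1.27% and 2.45% of all tested genes. With all 6 libraries 5 were called lower and 2 higher. The median log2 fold change was 0.00 and signs were evenly split, 38 below and 38 above 0. Most calls were among 14 other proteoglycans and net-associated proteins, of which 5 were called lower and 1 higher. None of the 17 matrix receptors and ligands, the 9 tested genes of hyaluronan synthesis and turnover, or the 2 tested genes of other tenascins and link proteins was called. By adjusted p alone 3 of the 17 receptors and ligands were lower and 2 higher over 5 libraries, and none with all 6. Over 5 libraries 7.07% of all tested genes were lower by this rule and 9.38% higher.

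*Reln*, which encodes the matrix glycoprotein reelin, had the smallest p of the wider list. It was at 77.5, 84.8 and 87.1 CPM in the GFP libraries and at 37.5, 38 and 28.3 in the Ezh2 libraries, with no overlap and a log2 fold change of -1.13 ± 0.07 (edgeR adjusted p = 2.65e-08). The fibulins, matrix glycoproteins that bind the C-terminal part of lecticans, were both called lower. *Fbln1* was at 26.8, 33.6 and 29 CPM against 8.45, 11.9 and 5.81 (log2 fold change -1.54 ± 0.14, edgeR adjusted p = 1.11e-06). *Fbln2* was at 6.08, 4.14 and 4.2 CPM against 1.3, 0.971 and 1.2 (-2.07 ± 0.27, edgeR adjusted p = 7.31e-05). In both the groups were widely separated.

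The testicans, secreted proteoglycans with a calcium-binding domain, gave a further pair of calls. *Spock1* was at 12.5 to 13.6 CPM in the GFP and 6.37 to 7.73 in the Ezh2 libraries (log2 fold change -0.79 ± 0.12, edgeR adjusted p = 0.000289), and *Spock3* at 3.77 to 4.22 against 0.932 to 1.42 (-1.79 ± 0.27, edgeR adjusted p = 0.000207). *Reln*, *Fbln1*, *Fbln2*, *Spock1* and *Spock3* were also called with all 6 libraries. *Adamts9*, a protease that cleaves versican and aggrecan, was at 6.16 to 7.69 CPM against 2.89 to 4.63 (-0.65 ± 0.18, edgeR adjusted p = 0.0186). Its call did not hold with 6 libraries (edgeR adjusted p = 0.0626), nor over 5 without GFP replicate 1 or Ezh2 replicate 2 (edgeR adjusted p = 0.0703 and 0.137), and the antisense gene *A730049H05Rik* covers 9.18% of its exon bases.

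*Timp1*, an inhibitor of matrix metalloproteinases, was called higher, at 12.6 to 16.2 CPM in the GFP and 21.3 to 27.1 in the Ezh2 libraries (log2 fold change 0.89 ± 0.11, edgeR adjusted p = 4.03e-05). *Nptx1*, a neuronal pentraxin that gathers glutamate receptors at synapses, was at 7.17 to 7.85 CPM against 12.5 to 14.9 (0.89 ± 0.13, edgeR adjusted p = 0.000131). Both remained called with 6 libraries. *Dse*, which epimerises chondroitin to dermatan sulfate, was at 21.4 to 25.2 CPM against 28.8 to 36.5 (0.61 ± 0.09, edgeR adjusted p = 0.000135), just beyond the fold threshold. It lost the call with 6 libraries, where the log2 fold change was 0.53, and over 5 without GFP replicate 3 (0.53) or Ezh2 replicate 2 (0.57).

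The receptors of chondroitin sulfate, *Ptprs* and *Ptprf*, had log2 fold changes of 0.04 ± 0.05 and -0.01 ± 0.05 at 656 to 742 and 353 to 432 CPM, with errors far smaller than a 1.5-fold change. Of the enzymes that build and sulfate the chains, *Chst3* (6-O-sulfation) had a log2 fold change of 0.02 ± 0.13 and *Chst11* (4-O-sulfation) of 0.09 ± 0.09. *Csgalnact1*, which starts the chain, was at 0.944 to 2.3 CPM with 0.46 ± 0.33 (edgeR adjusted p = 0.396), too imprecise to place. Over all 21 tested genes of chain synthesis the log2 fold changes ran from -0.27 to 0.62 with a median of 0.08, and *Dse* was the only call.

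**Figure D4:**
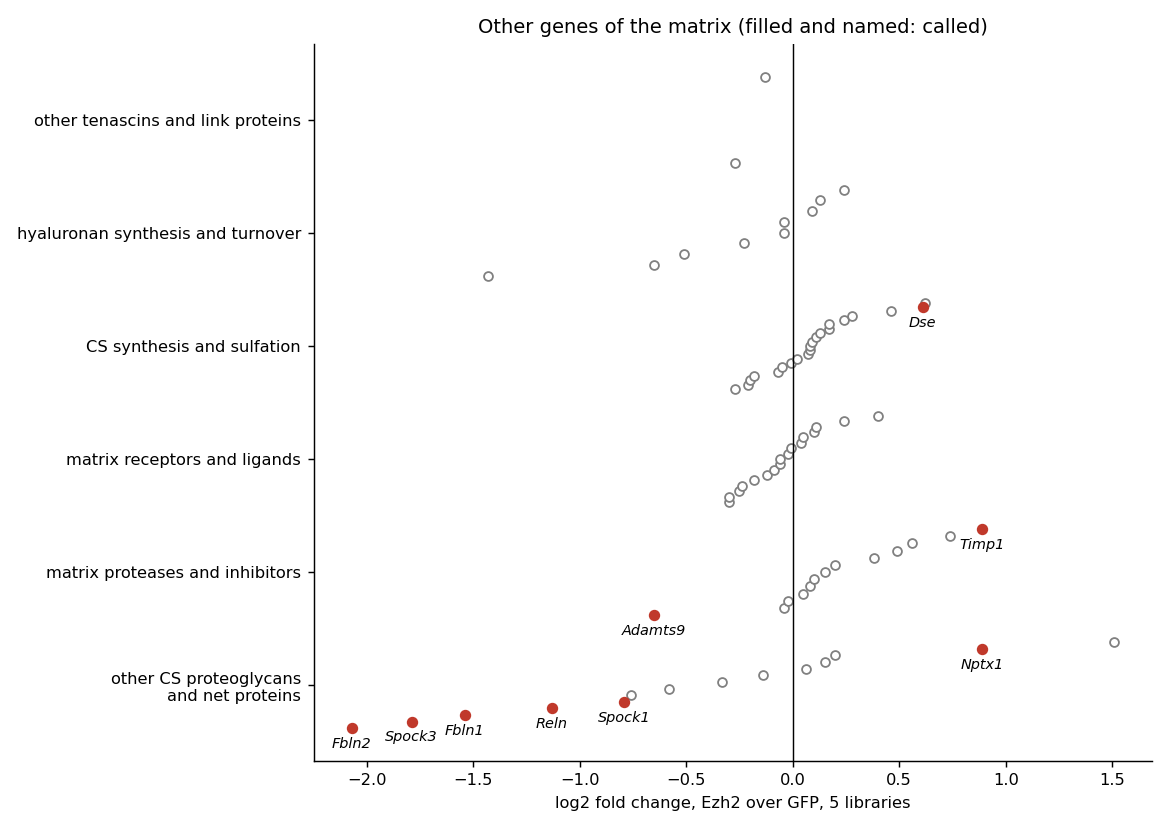
Log2 fold change of Ezh2 over GFP over 5 libraries for the 76 tested genes of the wider list, by category (CS, chondroitin sulfate), with called genes filled and named. *Fbln2*, *Spock3*, *Fbln1*, *Reln*, *Spock1* and *Adamts9* lie to the left and *Dse*, *Timp1* and *Nptx1* to the right. Matrix receptors and ligands lie from -0.30 to 0.40.

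Relative to the GFP mean, *Tnr* was at -1.01, -1.52 and -2.27 on the log2 scale in Ezh2 replicates 1 to 3. The summed horizontal cell markers were at -1.71, -1.53 and -2.11, a difference that came from *Calb1*, since without it they were at -0.68, 0.02 and -0.32, with GFP libraries from -1.09 to 0.58. *Vcan* was at -0.79, -0.68 and -0.88 and *Ptprz1* at -0.57, -0.49 and -0.82. The summed Muller glia list was at -0.09, 0.00 and -0.36 with *Apoe*, which was called higher, and at -0.35, -0.31 and -0.63 without it. In Ezh2 replicates 1 to 3 the myeloid sum without *Lyz2* was at 0.33, 0.36 and -0.16. The astrocyte sum without *Gfap* was at -0.04, 0.02 and -0.27. Both whole lists were above the GFP mean in each of these libraries. In Ezh2 replicate 3 the T cell list was highest, at 743 CPM against 457 and 481 in the other Ezh2 libraries and 357 to 382 in the GFP libraries. Within this list *Cd2* was at 189 CPM in Ezh2 replicate 3 against 53 and 49.4 in replicates 1 and 2. *Cd8a* was at 37.9 CPM there against 44.5 and 46.2. T cells carry CD90.2, the antigen of the sort, and their part in the values of this library was not tested.

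**Figure D5:**
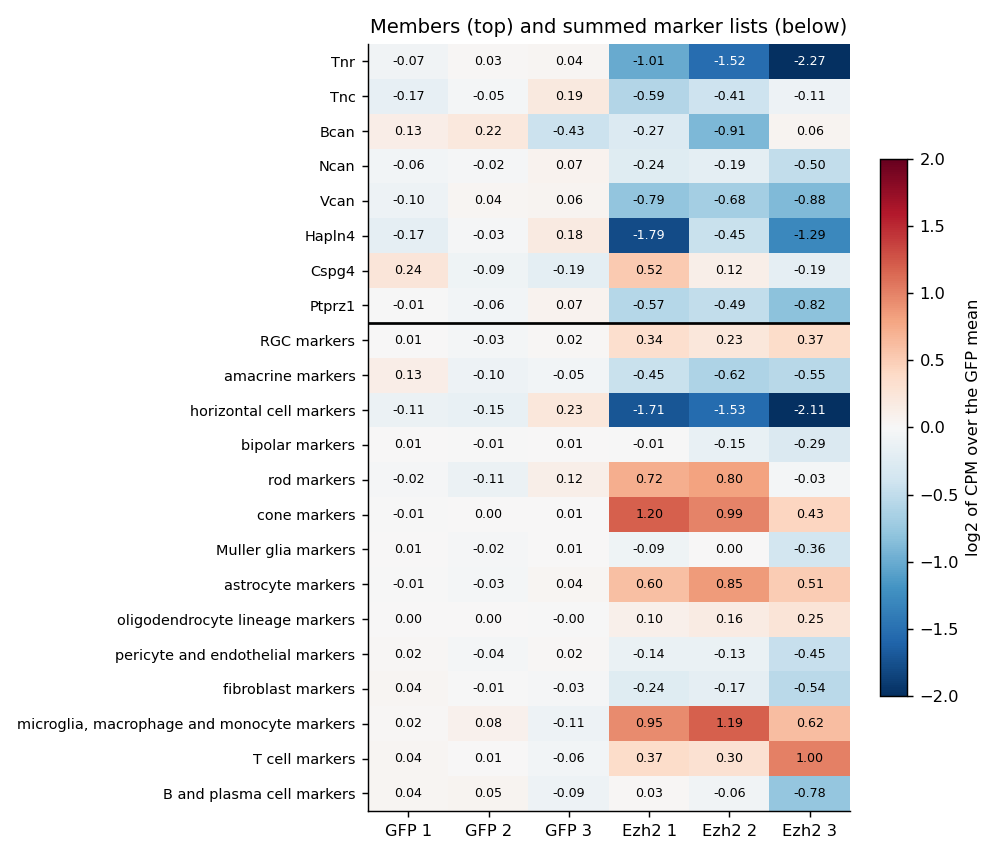
Log2 of the CPM over the GFP mean in each of the 6 libraries, for the 8 tested genes (top) and for the summed CPM of 14 marker lists (below), blue for lower and red for higher. Ezh2 replicate 3 has the lowest *Tnr*, *Vcan* and *Ptprz1* and the highest T cell sum. The RGC, cone, astrocyte, oligodendrocyte lineage, myeloid and T cell lists are above the GFP mean in all 3 Ezh2 libraries.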

How the data were processed

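RNA was isolated with the PicoPure kit and libraries were made with the TruSeq Stranded Total RNA kit. The deposited values are raw counts per gene in all 6 libraries, made by the authors from reads aligned, per the submitters' processing notes, with STAR 2.7.0d to GRCm38. The counter, the annotation and the strand setting are not given in the sources used here. Identifiers were matched to GENCODE M21 (55480 of 55573), which gave positions and exon lengths. Depth was 30569933 to 35971192 counts a library, so 3 counts correspond to 0.0834 to 0.0981 CPM, for counting error only.

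Counts of GFP replicates 1 to 3 and Ezh2 replicates 1 and 2 were fitted with edgeR 4.0.16 (filterByExpr, TMM, glmQLFit and glmQLFTest, two-sided, Benjamini-Hochberg over all tested genes), tested first on simulated data, and again with all 6 libraries. The sources do not name the library the study excluded; it was taken as Ezh2 replicate 3. SE is the absolute log2 fold change over the square root of F. CPM used library totals. RPKM divided by the union of exons. Alternatives were each library left out, a replicate block, RLE factors, library totals alone, DESeq2 1.42.0, limma-voom (limma 3.58.1), no filter, a mean of at least 50 counts, and adjusted p alone.

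The 10 genes, the wider list, the marker lists and the tests were chosen with earlier results of these data known. All 10 genes were named, as were wider-list genes called over 5 libraries, *Ptprs*, *Ptprf*, *Chst3*, *Chst11* and *Csgalnact1*, and the 3 genes of at least 100 normalized counts with the highest Pearson r to *Tnr* (log2 CPM, prior count 2), of which 1 is not reported here. *Hapln3* was named after its values were seen. Of the other marker lists, over 5 libraries, 2 of 10 tested RGC, 3 of 8 rod, 7 of 7 cone and 1 of 4 astrocyte genes were called higher. So were 2 of 10 pericyte and endothelial and 1 of 7 T cell genes, against 2.45% of all tested genes. With all 6 libraries these counts were 3 RGC, 0 rod, 2 cone, 1 astrocyte, 1 pericyte and endothelial and 1 T cell gene. The share of all tested genes was then 1.6%. None of the bipolar, oligodendrocyte or B cell genes was called in either fit. Marker sums without 1 gene were chosen after the data were seen. Promoter windows are from RefSeq (GRCm38.p6).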

Additional observations from a re-analysis of the deposited data

How the results depend on the processing

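The count of matrix members called lower was 2 under RLE factors, library totals, DESeq2, limma-voom, no filter and a mean of at least 50 counts. It was 4 by adjusted p alone, and ran from 0 to 3 when 1 library was left out, with 0 from all 6 without GFP replicate 2 or 3 and 1 without GFP replicate 1; the count called higher was 0 under every setting tried. Their median log2 fold change was -0.45 with all 6 libraries and ran from -0.59 to -0.44 with 1 library left out. Over all genes, 754 calls became 476 with 6 libraries, 3330 by adjusted p alone, and 93 to 755 with 1 library left out. Wider-list calls were 11 lower and 10 higher by adjusted p alone, and 2 to 6 lower and 0 to 4 higher with 1 library left out. The *Ezh2* log2 fold change ran from 1.05 to 1.56 with 1 library left out and lost its call from 6 libraries without GFP replicate 1, 2 or 3 (edgeR adjusted p = 0.0767, 0.052 and 0.0692). The cause of these differences was not tested. With 1 Ezh2 library left, its spread is taken from the GFP group. Genes near 0 changed sign: *Chst3* to -0.093 with 6 libraries and -0.16 to 0.073 with 1 left out, *Ptprf* to -0.093 to 0.024, and *Ptprs* to -0.0069 to 0.074.

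Equal replicate numbers did not pair the libraries, as deviations of same-numbered libraries correlated at -0.00454, -0.0199 and -0.00991. With the replicate block, calls were 724 over 5 libraries and 274 over 6, the members' median was -0.59 and -0.45, 2 and 3 members were called lower (the added call was *Ptprz1*, at -0.59), *Ptprf* was at 0.018 over 5 and *Chst3* at -0.10 over 6. *Dse* was not called in either and *Adamts9* not over 6; no other named call differed from that over 5 libraries. *Bcan* and *Hapln4* had 12 to 56 counts a library, and *Hapln4* ran from -1.78 to -0.43 with 1 of the 5 left out.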
